A study of Mus musculus with 42 samples.

Results

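The genes described here encode the proteins of the cytosolic ribosome. They were taken as every probe set that the platform annotation ties to a single gene whose symbol starts Rpl or Rps and a digit, plus the P-stalk genes Rplp0 and Rplp2 and the small-subunit gene Rpsa. S6 kinase genes, Rps19bp1, pseudogene names and paralogues ending in a small l were left out, and each gene was read from its brightest probe set. This gave 45 of the 18193 genes tested, 24 of the large subunit and 21 of the small subunit, from 99 probe sets. Another 29 ribosomal protein symbols, Rplp1 among them, lay only on probe sets listed under several genes and were not analysed here. The genes Rpl7l1 and Rpl22l1 stayed in by the letter of the rule.

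Total RNA of striatum and hippocampus from C57BL6 mice was measured on 42 Affymetrix arrays in 8 groups. By genotype they were WT (wild type) or carried the label KO (knockout) for PDE10A, a phosphodiesterase of striatal projection neurons. Each genotype had received vehicle (Veh) or an inhibitor of PDE10 (PDE10i). Striatum (STR) had 5 WT Veh, 6 WT PDE10i, 5 KO Veh and 4 KO PDE10i arrays, and hippocampus (HPC) had 6, 6, 5 and 5. The sources used here do not give the allele, the compound, its dose and timing, or the age of the mice. They do not state either whether each array is a different animal, so the p-values cover the spread from array to array, part of which may be technical.

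A ribosome joins a small subunit, which reads the mRNA, to a large subunit, which forms peptide bonds, and its proteins are made in matched amounts. The mRNAs of these proteins are among the most abundant in neurons and glia. Most of them start with a run of C and T bases, the 5' terminal oligopyrimidine or TOP element, through which mTOR signalling and LARP1 regulate their translation.

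The start regions of the 4 genes that were higher in striatum in every condition, and of Rps2, which came closest to a call for the inhibitor, are shown so that the pyrimidine run can be read. Each line gives 50 bases before and 20 from the annotated RefSeq start in GRCm38.p6, 5' to 3' on the gene's strand, which was the plus strand for each. Capitals mark the longest run of C and T that reached within 10 bases of the start, and for a gene with several annotated starts the start with the longest run was taken.
Rpl22, chr4:152324386-152324455: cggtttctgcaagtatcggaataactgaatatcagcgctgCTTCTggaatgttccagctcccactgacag
Rplp2, chr7:141447601-141447670: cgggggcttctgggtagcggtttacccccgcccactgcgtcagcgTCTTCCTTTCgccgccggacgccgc
Rps19, chr7:24884863-24884932: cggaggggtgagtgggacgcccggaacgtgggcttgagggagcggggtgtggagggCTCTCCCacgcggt
Rpsa, chr9:120127716-120127785: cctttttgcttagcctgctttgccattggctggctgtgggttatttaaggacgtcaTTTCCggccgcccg
Rps2, chr17:24720013-24720082: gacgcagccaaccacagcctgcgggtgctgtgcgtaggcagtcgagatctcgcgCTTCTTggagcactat
The run was longest in Rplp2, where it spans the annotated start, and short in Rpl22 and Rpsa. A run of at least 6 pyrimidines near the start was present in 25 of the 46 windows of 40 of these genes (54.3%), against 30% of all 32851 windows. The motif CTTTCC, searched from 30 bases before to 20 after the start, was found on the gene's strand in 13% of the windows and on the opposite strand in 2.17%, against 2.44% and 2.13% of all windows. The motif CCGGAAG, the core that ETS factors such as GABP bind, was found on either strand within the 300-base window in 41.3% of them and in 8.86% of all windows. TATAAA, searched on either strand in the 40 bases before the start, was found in 2.17% against 3.03%. These matches describe the letters only.

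The neuronal marker lists matched the region labels. All 13 measured markers of striatal projection neurons were higher in striatum in each of the 4 conditions, with median log2 differences of 3.97 to 4.48. The 10 markers of cortical and hippocampal glutamatergic neurons averaged log2 9.09 to 9.39 on hippocampal arrays and 6.18 to 8.65 on striatal arrays. Their striatal group means were 7.50 in WT Veh, 6.64 in WT PDE10i, 7.67 in KO Veh and 7.72 in KO PDE10i. Slc17a7 reached 10.76 on a striatal KO PDE10i array, within its hippocampal range, which began at 10.69. The part of this spread in the differences below was not tested. Of the 9 oligodendrocyte markers, 7 or 8 passed as higher in striatum in each condition. Pde10a was not lower in the arrays labelled KO (striatum, KO Veh 12.35 ± 0.22, SD, n = 5, against WT Veh 12.32 ± 0.26, n = 5), and 8 arrays lay on the other genotype's side of a score of 15 chromosome 17 genes, the chromosome of Pde10a. Directions by genotype below refer to the labels. Counts of members called that changed without these arrays are given with and without them, and lost calls are named for some genes only.

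Most of these genes gave strong and steady signals. The mean log2 signal was above 10 for 35 of the 45 genes. The remaining 10 were Rpl37, Rpl27a, Rpl7l1, Rps6, Rpl39, Rps25, Rps27, Rpl12, Rpl14 and Rps16, the last near log2 3.45. The median SD within groups was 0.07 for the 35 bright members and 0.11 for all 1774 genes above log2 10. The steadiest were Rpl10a, Rpl38 and Rps26, with SDs of 0.039, 0.0437 and 0.0482, and the least steady were Rpl27a, Rpl37a and Rpl14, with 0.219, 0.152 and 0.148. Ribosomal protein genes have many processed pseudogenes and close copies, so a signal can include related transcripts. The probe set names carry a warning of this kind for 14 of the 45 genes (12 with the suffix x and 2 with s, for probes shared with other sequences).

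Striatum and hippocampus were first compared within each condition. In WT Veh mice 16 of the 45 genes were higher in striatum and 1, Rpl14, was lower (limma, Benjamini-Hochberg over all genes). That is 37.8% of the members beside 33.9% of all genes, a share near the background. By direction it was 35.6% higher and 2.22% lower, beside 15.9% and 17.9% of all genes. In WT PDE10i mice 16 were higher and 1, Rpl4, was lower, again 37.8%, beside 35.6% of all genes (18.4% higher and 17.2% lower). In KO Veh mice 8 were higher and 0 lower (17.8% beside 27.3% of all genes, 12.5% higher and 14.8% lower). At an unadjusted p under 0.05 there were 11 members in KO Veh, beside 6447 of all 18193 genes. In KO PDE10i mice 4 were higher and 1, Rpl14, lower (11.1% beside 26.1% of all genes, 10.6% higher and 15.5% lower). Among genes above log2 10 the called shares were 42.9%, 42.9%, 20% and 11.4% of the 35 bright members, in the same order of conditions, beside 53.5%, 60%, 47.5% and 44.3% of all 1774 such genes.

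The differences were small. The median over the 45 genes was 0.06, 0.08, 0.04 and 0.04 on the log2 scale in WT Veh, WT PDE10i, KO Veh and KO PDE10i, against 0.03, 0.01, 0.01 and 0.01 over all genes. Small-subunit genes had medians of 0.09, 0.10, 0.05 and 0.06, and large-subunit genes 0.05, 0.07, 0.01 and 0.01. The groups did not overlap, with striatum higher, for 10, 7, 4 and 4 members, beside 9.28%, 9.48%, 8.49% and 9.17% of all genes. Leaving out the striatal WT Veh array 4 reduced the 17 calls in WT Veh to 9, 20% of the members, while the share of all genes went from 33.9% to 26.6%. Leaving out the striatal KO PDE10i array 35 reduced the 5 calls in that condition to 1, while the share of all genes went from 26.1% to 19.8%. Without the 8 doubted arrays the counts were 18, 11, 5 and 6, or 40%, 24.4%, 11.1% and 13.3% of the members, beside 34.4%, 29.1%, 20.1% and 26.8% of all genes. Centring each array on its 75th percentile gave 13 higher and 1 lower in KO PDE10i. That centring also moved the median difference over all genes there, from 0.0058 to 0.0652. The share of all genes called under it is given at the end.

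**Figure D1:**
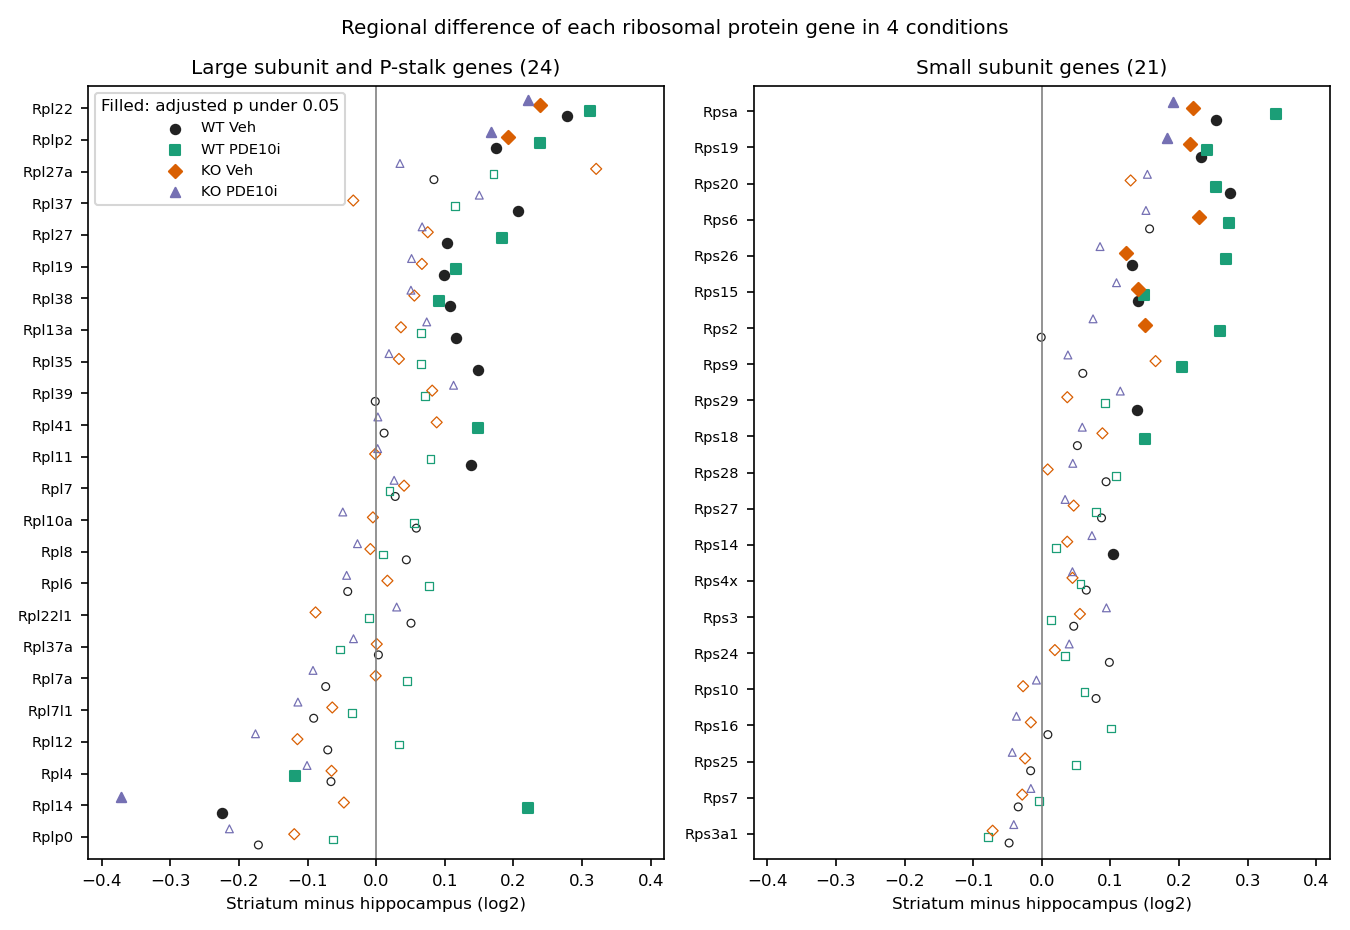
Striatum minus hippocampus difference (log2, x axis) of each of the 45 genes in WT Veh, WT PDE10i, KO Veh and KO PDE10i mice, with large-subunit genes on the left and small-subunit genes on the right. Filled symbols passed an adjusted p of 0.05, and Rpl22, Rplp2, Rpsa and Rps19 are filled in all 4 conditions, to the right of zero.

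The 4 genes called higher in striatum in all 4 conditions were Rpl22, Rplp2, Rps19 and Rpsa, 8.89% of the members beside 7.34% of all genes. In fits of only the groups compared, Rpsa, Rps19 and Rplp2 lost their KO PDE10i call (adjusted p 0.102, 0.0567 and 0.155, limma). Rplp2 lost its WT Veh call there as well (adjusted p 0.0515). Rpl22 kept its calls in these fits, but its direction depended on the probe set, as given below. Another 2 genes, Rps15 and Rps26, were called in 3 conditions and 6 in 2 of them, while 23 genes were called higher in none. The matching shares of all genes were not taken, so these counts are not read as particular to the members. No member was lower in all 4 conditions, beside 10.1% of all genes.

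Rpl22 is a large-subunit protein that also binds RNA outside the ribosome. Its striatal values were 11.51, 11.46, 11.47, 11.65 and 11.41 in WT Veh, 11.40, 11.34, 11.48, 11.43 and 11.45 in KO Veh, and 11.24, 11.52, 11.49 and 11.37 in KO PDE10i, and ran from 11.40 over a median of 11.47 to 11.59 in WT PDE10i. Its hippocampal values were 11.19, 11.12, 11.20, 11.20 and 11.18 in KO Veh and 11.17, 11.24, 11.14, 11.21 and 11.15 in KO PDE10i, and ran from 11.09 over 11.18 to 11.47 in WT Veh and from 11.12 over 11.16 to 11.30 in WT PDE10i. A single hippocampal array, WT Veh 1 at 11.47, lay within the range of its striatal group, and in the other 3 conditions the regions did not overlap. In KO PDE10i they all but touched, with the lowest striatal value at 11.2362 and the highest hippocampal one at 11.2351. The striatal excess was 0.28 ± 0.05 (SE) in WT Veh, 0.31 ± 0.05 in WT PDE10i, 0.24 ± 0.06 in KO Veh and 0.22 ± 0.06 in KO PDE10i, or 1.17- to 1.24-fold (adjusted p 8.1e-05, 4.7e-06, 0.00104 and 0.00436, limma).

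Rplp2 is an acidic protein of the P-stalk, the arm of the large subunit that recruits translation factors. It read 12.89, 12.91, 12.87, 13.12 and 12.82 in striatal WT Veh arrays, and 12.65 to 12.88 with a median of 12.74 in the hippocampal ones. The striatal array 4 was the highest of all 42, and the regions overlapped in this condition. The striatal excess was 0.17 ± 0.05 in WT Veh, 0.24 ± 0.05 in WT PDE10i, 0.19 ± 0.06 in KO Veh and 0.17 ± 0.06 in KO PDE10i (adjusted p 0.0118, 0.00028, 0.0092 and 0.0378, limma). Without striatal WT Veh array 4 the first of these was 0.12 with an adjusted p of 0.0857. Without striatal KO PDE10i array 35 the last was 0.10 with an adjusted p of 0.276. It also lost its call without striatal array 37 or hippocampal array 34, 36 or 39 (adjusted p 0.0589 to 0.0789), and without the doubted arrays the WT PDE10i value was 0.16 with 0.0897.

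Rps19 is a small-subunit protein needed to mature the 18S ribosomal RNA, and loss of one copy causes Diamond-Blackfan anaemia. Its striatal values were 11.98, 12.04, 12.06, 12.09 and 11.92 in WT Veh, 11.84, 11.95, 12.16, 11.97 and 12.03 in KO Veh, and 11.87, 12.05, 12.06 and 12.00 in KO PDE10i, and ran from 11.89 over 12.02 to 12.21 in WT PDE10i. On the 22 hippocampal arrays it ran from 11.70 over 11.79 to 11.86. The regions did not overlap within any of the 4 conditions, and over all arrays a single striatal array, KO Veh 25 at 11.84, lay within the hippocampal range. The striatal excess was 0.23 ± 0.05, 0.24 ± 0.05, 0.22 ± 0.05 and 0.18 ± 0.06 in WT Veh, WT PDE10i, KO Veh and KO PDE10i (adjusted p 0.000443, 0.000108, 0.00172 and 0.0137, limma). The WT PDE10i value fell to 0.13 (adjusted p 0.0789) without the doubted arrays, and the KO PDE10i call was lost without striatal array 35 (adjusted p 0.0543) or 37 (0.0566).

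Rpsa is a small-subunit protein also known as the laminin receptor. It read 12.38, 12.17, 12.18, 12.47 and 12.25 in striatal WT Veh arrays, 12.42, 12.19, 12.29, 12.12 and 12.31 in KO Veh, and 12.08, 12.40, 12.39 and 12.29 in KO PDE10i, and from 12.27 over 12.36 to 12.53 in WT PDE10i. On the 22 hippocampal arrays it ran from 11.97 over 12.05 to 12.19. The striatal excess was 0.25 ± 0.06, 0.34 ± 0.06, 0.22 ± 0.06 and 0.19 ± 0.07 in the same order (adjusted p 0.000775, 4.3e-06, 0.00533 and 0.0257, limma), and the WT PDE10i value, 1.27-fold, was the largest striatal excess of any member in any condition that passed. The KO PDE10i call was lost without striatal array 35 or 37 or hippocampal array 34 or 36, with adjusted p of 0.128, 0.103, 0.0533 and 0.0501. The KO Veh value was 0.18 (adjusted p 0.101) without the doubted arrays. Averaged with its second, dim probe set, Rpsa gave 0.13 in WT Veh (adjusted p 0.0681) and 0.02 in KO PDE10i (0.895), both without a call.

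**Figure D2:**
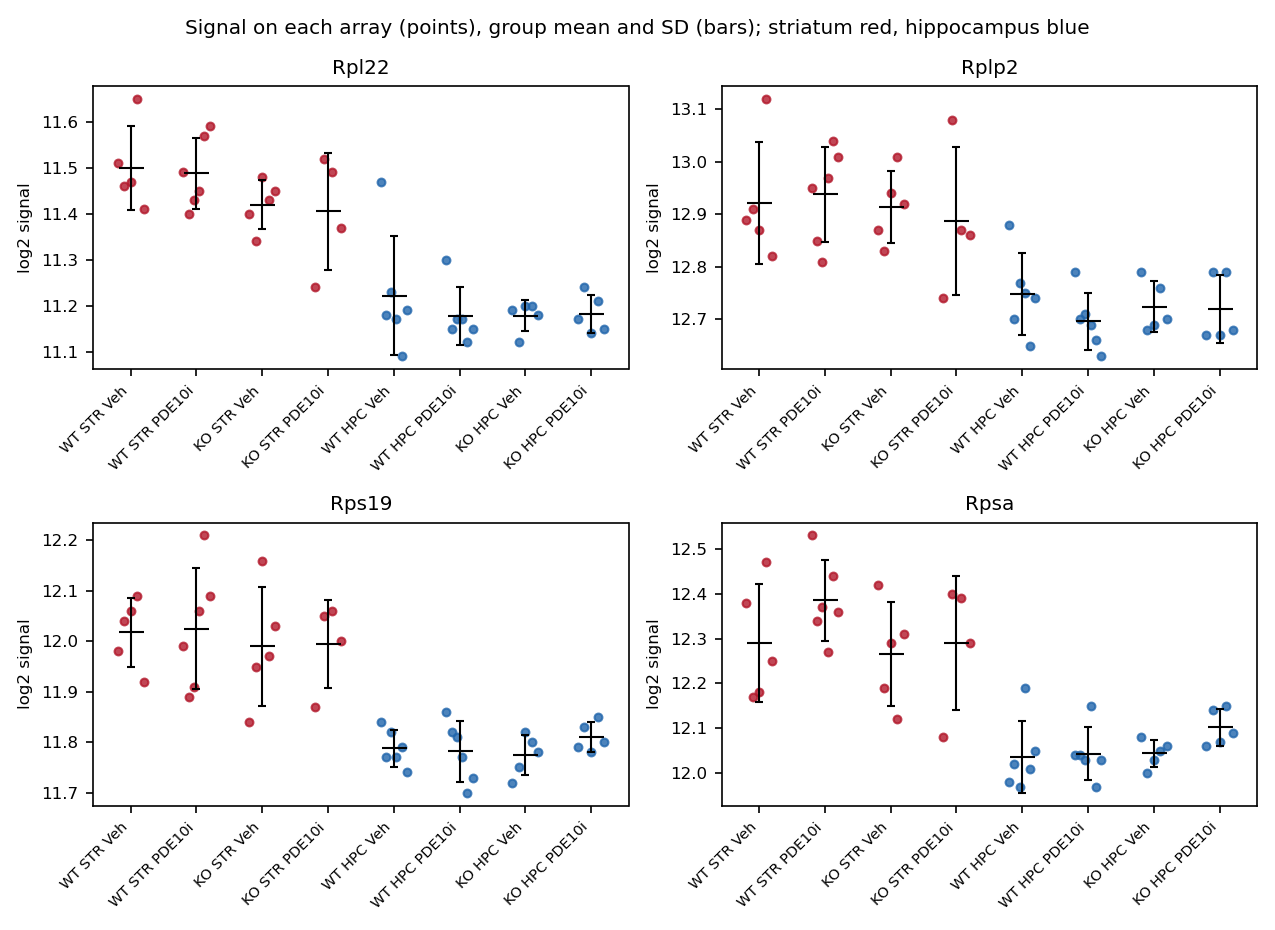
Log2 signal (y axis) of Rpl22, Rplp2, Rps19 and Rpsa on each array, in the 4 striatal groups (red) and the 4 hippocampal groups (blue), with the group mean and SD. Striatal means lie above the hippocampal mean of the same condition in each panel, by 0.17 to 0.34.

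The regional call for Rpl22 depended on the probe set read. The gene has 3 probe sets, with mean log2 signals of 11.32, 9.87 and 9.31. The names of the brightest and the dimmest carry the suffix s, described above, and that of the middle one does not. On the brightest, used above, 20 striatal arrays had a median of 11.45 and 22 hippocampal arrays one of 11.18. On the middle one, striatal arrays ran from 9.72 over 9.98 to 10.11 and hippocampal arrays from 9.61 over 9.78 to 9.96. On the dimmest the order turned: striatal arrays ran from 8.83 over 9.01 to 9.35 and hippocampal arrays from 9.31 over 9.56 to 9.75. Across all 42 arrays a single striatal array, WT Veh at 9.35, exceeded the lowest hippocampal one, at 9.31. In fits over all single-gene probe sets, Rpl22 read with the dimmest was lower in striatum by −0.46 ± 0.07, −0.56 ± 0.07, −0.48 ± 0.07 and −0.43 ± 0.08 in WT Veh, WT PDE10i, KO Veh and KO PDE10i (adjusted p 2.3e-06, 1.6e-08, 2.8e-06 and 6.8e-05, limma). Read with the middle one, Rpl22 was higher by 0.14 ± 0.05, 0.19 ± 0.05 and 0.26 ± 0.06 in the first 3 conditions (adjusted p 0.0397, 0.00302 and 0.000382) and by 0.12 ± 0.06 in KO PDE10i, which did not pass (adjusted p 0.172). The mean of the 3 probe sets gave −0.02, −0.02, 0.01 and −0.03, none called. The transcripts each probe set matches were not looked up, and the regional direction of Rpl22 is not settled by these arrays.

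**Figure D3:**
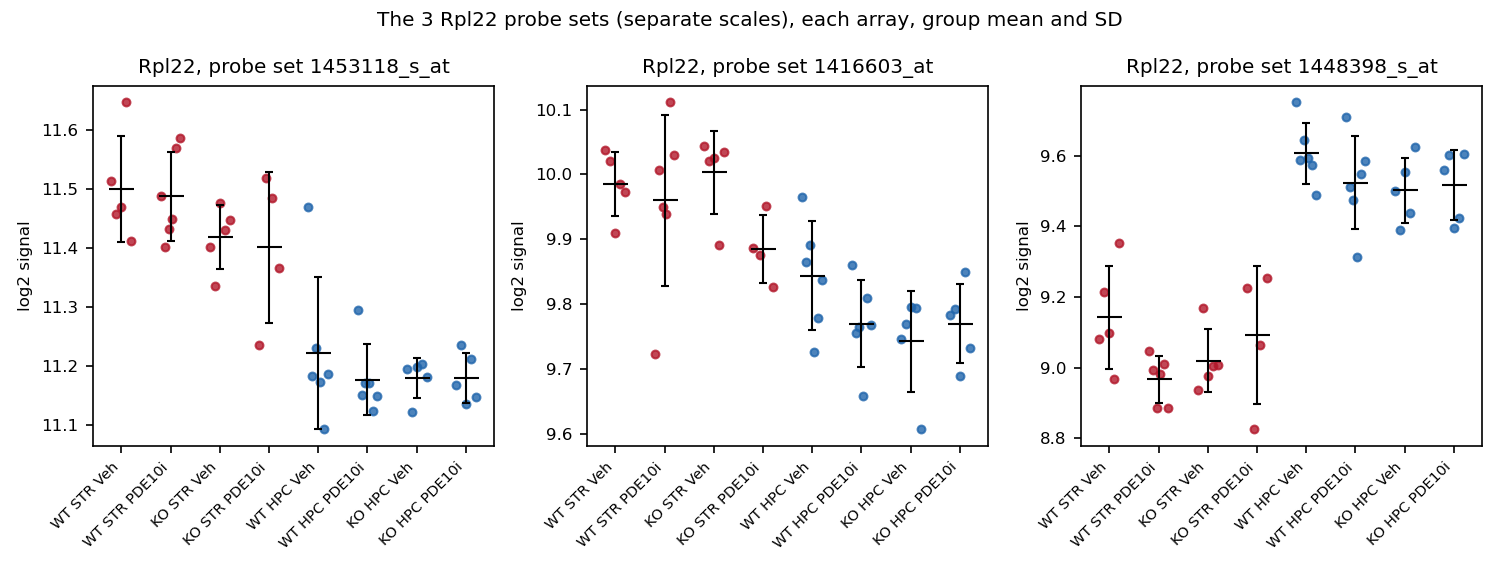
Log2 signal (y axis, separate scale per panel) of the 3 Rpl22 probe sets on each array of the 8 groups, striatum in red and hippocampus in blue, with the group mean and SD. In the first 2 panels the striatal medians are higher (11.45 against 11.18 and 9.98 against 9.78), and in the third they are lower (9.01 against 9.56).

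Of the 23 genes with several probe sets, Rpl22 was the only one with probe sets called in opposite directions in all 4 conditions. Rps20, at the head of the small subunit, was called both ways in WT Veh and WT PDE10i. Its bright sets were higher in striatum in WT Veh (0.27 ± 0.06 and 0.31 ± 0.06), whereas Rps20 sets near log2 4.56 and 4.15 were lower (−0.32 ± 0.08 and −0.47 ± 0.10), and the mean of all 4 gave −0.05. Rps18 was called both ways in WT Veh, with a set near log2 11.55 at 0.20 ± 0.06 and a set near log2 3.48 at −0.24 ± 0.08. Sets of Rpl37a, Rps9, Rpl41, Rps6, Rps24 and Rpsa differed in sign in at least 1 condition in which a set was called, with none called the other way. Rpsa had a second probe set near log2 4.09, which was called in none of the 4 conditions. The 2 sets of Rps15 kept apart in the same direction: striatal medians were 12.77 and 12.68, hippocampal ones 12.63 and 12.51.

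Further members passed in fewer conditions. Rps15 was higher in striatum by 0.14 ± 0.04 in WT Veh, 0.15 ± 0.04 in WT PDE10i and 0.14 ± 0.04 in KO Veh (adjusted p 0.0101, 0.00345 and 0.0157, limma). Rps26, which lies at the mRNA exit channel, was higher by 0.13 ± 0.04, 0.27 ± 0.04 and 0.12 ± 0.04 in the same conditions (adjusted p 0.00603, 8.1e-08 and 0.0167), and on WT PDE10i arrays its striatal values (11.94 to 12.05) all lay above its hippocampal ones (11.66 to 11.77). The KO Veh values were lost as calls without striatal array 28 for Rps15 (adjusted p 0.0601), and for Rps26 without that array (0.0624), without hippocampal array 25 (0.0602) or without the doubted arrays, where Rps26 gave 0.08 (0.282). Rps6, the substrate of S6 kinase, was higher by 0.27 ± 0.06 in WT PDE10i and 0.23 ± 0.07 in KO Veh. The KO Veh call of Rps6 was lost without hippocampal array 26 (0.18, adjusted p 0.0569), in a fit of only the groups compared (0.0678) and with the mean of its probe sets (0.09, adjusted p 0.375). The other genes called higher were Rps20, Rpl37, Rpl35, Rps29, Rpl11, Rpl13a, Rpl38, Rps14, Rpl27 and Rpl19 in WT Veh (0.10 to 0.27), and Rps2, Rps20, Rpl14, Rps9, Rpl27, Rps18, Rpl41, Rpl19 and Rpl38 in WT PDE10i (0.09 to 0.26). Of those in WT Veh, Rpl37, Rpl35 and Rps29 lost their call without striatal array 4, and Rps29 gave 0.04 (adjusted p 0.464) after quantile normalization. Without striatal array 4, 9 members were called higher in WT Veh, in place of 16. The share of all genes called fell too, as given above. In WT PDE10i 10 members were called higher without the doubted arrays, in place of 16, while the share of all genes also fell, as given above. Not every call lost in WT Veh or WT PDE10i is named here. Rps2 passed also in KO Veh, at 0.15 ± 0.05 (adjusted p 0.0192), but gave 0.06 (adjusted p 0.486) without the doubted arrays. That call of Rps2 was lost as well without striatal array 25 (0.106) or hippocampal array 25 (0.0654) or 26 (0.0601), and in a fit of only the groups compared (0.147).

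Rpl14, a dim probe set near log2 5.95, moved both ways. It was lower in striatum in WT Veh (−0.22 ± 0.09, adjusted p 0.0462, limma) and KO PDE10i (−0.37 ± 0.10, adjusted p 0.00354) and higher in WT PDE10i (0.22 ± 0.08, adjusted p 0.0367). Striatal values were 5.87, 5.85, 5.61, 5.72 and 5.80 in WT Veh and 5.74, 5.33, 6.06 and 5.93 in KO PDE10i, and ran from 5.80 over 6.09 to 6.29 in WT PDE10i. The lowest, 5.33, was KO PDE10i array 35, and without it that difference was −0.22 with an adjusted p of 0.0732. The WT Veh call was lost on leaving out any of 8 single arrays, and the WT PDE10i call any of 7. Rplp0, the P-stalk protein often used as a reference gene, was lower in striatum by −0.17 ± 0.08, −0.06 ± 0.07, −0.12 ± 0.08 and −0.21 ± 0.08 and passed in none (adjusted p 0.0771, 0.57, 0.304 and 0.0562). In KO PDE10i its striatal values all lay below the hippocampal ones, as was so for 13.6% of all genes. Rpl4, whose extension lines the exit tunnel, was lower in WT PDE10i (−0.12 ± 0.05, adjusted p 0.0401), a call lost on leaving out any of 8 single arrays or the doubted ones.

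The inhibitor and the knockout label were then compared with their controls within each region. No member passed in any of the 8 comparisons, interactions included (limma). In WT striatum under the inhibitor 0 of 45 passed, beside 0.181% of all genes. At an unadjusted p under 0.05 there were 3 members, beside 1741 of all 18193 genes. In KO against WT vehicle striatum it was 0 and 3 members, beside 0.137% and 1081 genes. No gene of the 18193 passed (0%) in the other 6. The members with an unadjusted p under 0.05 there numbered 0 for the inhibitor in KO striatum and 2 for its interaction with genotype in striatum. Over all genes these were 257 and 1346. In hippocampus the members numbered 2 for the inhibitor in WT, 2 for the knockout label, 1 for the inhibitor in KO and 2 for the interaction. Over all genes the hippocampal counts were 1948, 1205, 695 and 2151 in the same order. The inhibitor and knockout comparisons of a region share the WT vehicle arrays, so their values are given side by side without a comparison between them.

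The members shifted by little and mostly by less than the spread between arrays. The median difference over the 45 genes was −0.01 for the inhibitor in WT striatum, −0.05 for the knockout label in striatum and 0 for the inhibitor in KO striatum. In hippocampus it was −0.03, −0.02 and 0.01 in the same order, and the medians over all genes lay between −0.01 and 0.01 in these 6 comparisons. The P-stalk genes and Rpsa stayed close to zero in WT striatum under the inhibitor: Rplp0 0.03 ± 0.10, Rplp2 0.02 ± 0.07 and Rpsa 0.09 ± 0.08. The 95% interval for Rplp2 there ran from −0.13 to 0.16. For the knockout label in striatum Rplp0, Rplp2 and Rpsa gave 0, −0.01 and −0.02, with SEs of 0.10, 0.07 and 0.08.

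**Figure D4:**
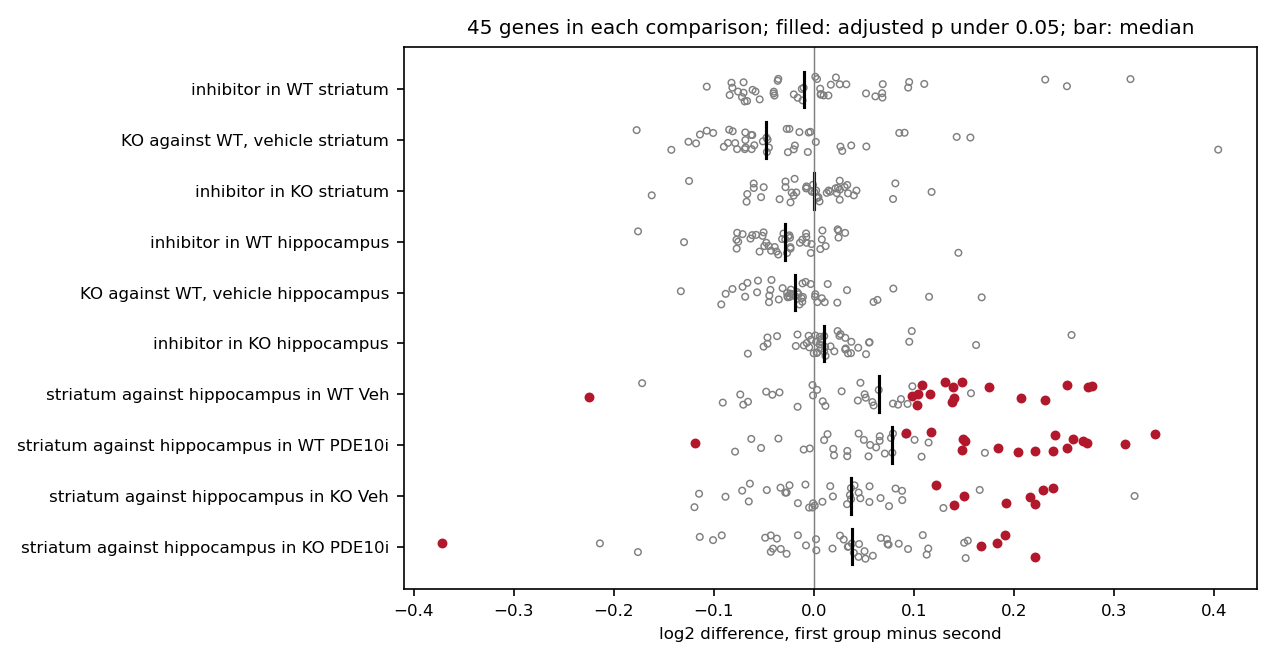
Log2 difference (x axis) of the 45 genes in the 6 simple inhibitor and knockout comparisons and the 4 region comparisons (rows), with filled points for an adjusted p under 0.05 and a bar at the median. No point is filled in the upper 6 rows, where medians lie between −0.05 and 0.01, and filled points lie mostly to the right of zero in the lower 4.

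The smallest p was that of Rps2, a small-subunit protein near the decoding site, whose start region is shown above. Striatal WT Veh arrays read 12.36, 12.38, 12.46, 12.44 and 12.40, and WT PDE10i arrays ran from 12.50 over 12.67 to 12.77. KO Veh arrays read 12.72, 12.48, 12.60, 12.44 and 12.53, and KO PDE10i arrays 12.49, 12.51, 12.54 and 12.57. The WT groups did not overlap, as was so for 2 members, both higher under the inhibitor. Over all genes it was 1.34% in either direction, and 177 genes with the inhibitor higher. The WT PDE10i array 14 was the lowest of its group for Rps2. The difference was 0.25 ± 0.06, or 1.19-fold, and did not pass (adjusted p 0.103, limma). It passed with array weights (0.28, adjusted p 0.0181), without WT PDE10i array 14 (0.29, adjusted p 0.0331) and without the doubted arrays (0.33, adjusted p 0.00428). Rps2 lies on chromosome 17, as Pde10a does, and the part of that in its value was not tested. In KO Veh striatum Rps2 was 0.14 ± 0.06 above WT Veh (adjusted p 0.769), and its interaction with genotype was 0.28 ± 0.09 (adjusted p 0.514).

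Others with a small p were dim or variable probe sets and some bright ones. Of the bright ones, Rpl11 gave −0.14 for the knockout label in striatum (adjusted p 0.804, limma). Rps18 gave −0.08 in hippocampus both for the inhibitor in WT and for the knockout label (adjusted p 0.468 and 0.749). Rpl14 differed by 0.32 ± 0.11 and Rpl27a by 0.23 ± 0.11 in WT striatum under the inhibitor (adjusted p 0.301 and 0.517, limma). Rpl27a read 8.36, 8.28, 8.45, 8.59 and 8.46 in WT Veh and 8.91, 8.44, 8.78, 8.94 and 9.08 in KO Veh striatum. Except for KO Veh array 26, at 8.44, the KO values lay above all WT ones, and the difference was 0.40 ± 0.11 (adjusted p 0.272). Rpl12, at the base of the stalk, was 0.18 lower (−0.18 ± 0.05, adjusted p 0.327) in WT hippocampus under the inhibitor and passed with array weights alone (−0.20, adjusted p 0.0427). For the knockout label in hippocampus Rpl12 gave −0.13 ± 0.05 (adjusted p 0.661). Its KO Veh values, 6.56 to 6.66, all lay below its WT Veh values, 6.70 to 6.79. Rpl22l1 was the other member whose groups did not overlap there, at 0.08 ± 0.04 (adjusted p 0.749), as was so for 0.588% of all genes.

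Whether the regional difference itself changed with the inhibitor or the genotype label was tested with 4 interactions, and 0 members passed in each. All-gene calls were 39 for the inhibitor in WT, 0 for the inhibitor in KO, 9 for genotype under vehicle and 0 for genotype under the inhibitor. Members at an unadjusted p under 0.05 numbered 4, 1, 3 and 6, or 8.89%, 2.22%, 6.67% and 13.3%, beside 12.7%, 1.81%, 5.29% and 13.1% of all genes, shares near or below the background. The nearest were Rpl14 for genotype under the inhibitor (−0.59 ± 0.13, adjusted p 0.0504, limma) and Rps2 for the inhibitor in WT (0.26 ± 0.07, adjusted p 0.0738). No member's regional difference is therefore shown to differ between the conditions.

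Within groups, part of these genes varied with a measure of RNA length. The measure is the difference in log2 signal between Gapdh control probe sets at the 3' and the 5' end (3' minus 5'), which rises as RNA is shortened. It ran from 0.10 to 1.05 on striatal and from 0.04 to 0.39 on hippocampal arrays. With the 8 groups in the fit, 7 members rose and 10 fell with it, 37.8% beside 26.3% of all genes. Within striatum 5 rose and 7 fell (26.7% beside 21.4%), and within hippocampus none did (0% beside 0.522%). Without the 2 arrays farthest from the median, striatal WT Veh 4 and KO PDE10i 35, 1 rose and 9 fell (22.2% beside 8.09%).

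Rplp0 fell by 0.52 ± 0.08 (SE) per unit of the Gapdh difference (adjusted p 3.6e-06, limma), and by 0.71 ± 0.11 without those 2 arrays (adjusted p 6e-05). It was lowest on striatal arrays WT PDE10i 13 (11.20), KO Veh 29 (11.23), WT Veh 4 (11.30) and KO PDE10i 35 (11.35), each the lowest of its group. The other striatal arrays read 11.48 to 11.69. Rpl37a fell by 0.64 ± 0.09 and Rps9 by 0.40 ± 0.06 per unit, with Rpl7a, Rps3a1, Rpl6, Rpl4, Rpl7, Rps4x and Rps7 between 0.19 and 0.33. Rps25, Rpl37, Rps20, Rplp2, Rps28, Rpl35 and Rps29 rose, by 0.17 to 0.41 per unit, with Rps20 at 0.34 ± 0.06 and Rplp2 at 0.30 ± 0.07. With the Gapdh difference in the fit the region counts were 12, 17, 10 and 7 (26.7%, 37.8%, 22.2% and 15.6% of the members, beside 26.9%, 36.6%, 28.8% and 26.3% of all genes), and the WT Veh value of Rplp2 was 0.10 (adjusted p 0.107).

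**Figure D5:**
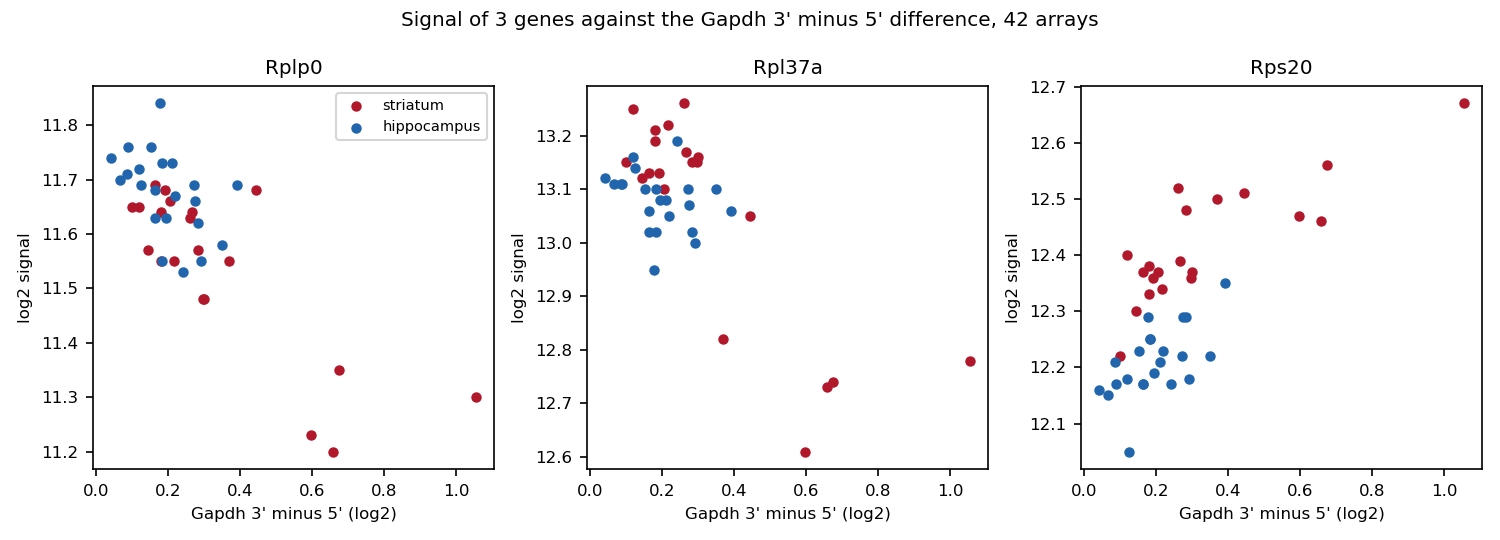
Log2 signal (y axis) of Rplp0, Rpl37a and Rps20 on each of the 42 arrays against the Gapdh 3' minus 5' log2 difference (x axis), striatum in red and hippocampus in blue. Rplp0 and Rpl37a are lowest on the striatal arrays with the highest difference, which reached 1.05.

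The regional pattern of other genes of the same system was read from lists. Of 20 measured genes that share the TOP element, 3 were higher and 3 lower in striatum in WT Veh, among them Eef1b2 (0.18 ± 0.05), Nap1l1 (0.32 ± 0.09) and Eif3e (−0.27 ± 0.05), beside 33.9% of all genes called. Of 40 ribosome biogenesis genes 3 were higher and 10 lower, with Bop1, a factor of large-subunit assembly, at −0.32 ± 0.06 and Nop56, of the small nucleolar particles, at −0.22 ± 0.06. Of 23 genes of mTOR and translation control 2 were higher, Rps6ka3 at 0.91 ± 0.09 and Tsc1 at 0.39 ± 0.07, and 6 lower, among them Eef2k at −0.39 ± 0.07. Of 76 mitochondrial ribosomal protein genes 3 were higher and 17 lower in WT Veh, beside 15.9% and 17.9% of all genes. In WT PDE10i 19 of them were higher and 3 lower, beside 18.4% and 17.2%. In KO Veh 3 were higher and 6 lower, and in KO PDE10i 1 was higher and 12 lower, and the difference between conditions was not tested. All of these list counts were taken with the doubted arrays in. None of the genes on these 4 lists passed in any inhibitor or knockout comparison. In bulk tissue a lower signal from fewer cells of a type cannot be told apart from less RNA per cell, and the part of cell composition in the regional differences was not tested.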

How the data were processed

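The values are log2 signals of 45101 probe sets on 42 arrays as the authors deposited them. The submitters' processing notes name RMA, which corrects background, normalizes quantiles across arrays and summarizes probes. Deposited values ran from 2.55 to 15.1, with array medians of 6.05 to 6.12. The scanner files were not used here. Gene names come from the platform's annotation. The 34945 with a single gene gave 18193 genes, each read from the probe set with the highest mean. No arrays held identical values. The number of arrays limits the precision.

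Differences were fitted with limma 3.58.1 (lmFit and eBayes, two-sided, Benjamini-Hochberg over 18193 genes, threshold 0.05). Contrasts within a region were taken from a fit of its 4 groups, and contrasts between regions from a fit of all 8. Folds are the log2 differences on a linear scale. The fit was tested on simulated data. Named genes are those that passed (up to 10 per direction), otherwise some of the 3 with the smallest p, plus Rplp0, Rplp2 and Rpsa. The 3 largest and smallest SDs, genes whose probe sets disagreed, and up to 3 per other list are named as well. Genes called in 3 conditions and further calls are named in addition. The members and lists were chosen with earlier results of these data known. Region interactions, Gapdh slopes, probe set fits, promoter motifs and the comparison with bright genes were added after seeing the data. Promoter sequences are from RefSeq. Alternatives were array weights, other centring, quantile normalization, the mean of probe sets, a filter on dim genes, the Gapdh difference as covariate, the replicate block, fits of only the groups compared, and leaving out single arrays or the 8 doubted ones.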

Additional observations from a re-analysis of the deposited data

Results flagged for a closer look

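Among the values given per array, 72 groups of 4 to 6 arrays were looked at, and 8 held an array far from the rest. Chance gives about 5 in 100 such groups. For Rplp0 the striatal WT PDE10i array 13 (11.20, next 11.55) and WT Veh array 4 (11.30, next 11.55) lay below their groups. For Rpl22 the hippocampal WT Veh array 1 (11.47) and WT PDE10i array 10 (11.30) lay above and KO Veh array 26 (11.12) below. For Rpsa the hippocampal WT Veh array 4 (12.19) and for Rpl27a the striatal WT PDE10i array 14 (9.10) lay above their groups. For Rpl14 the striatal KO Veh array 26 (5.76) lay below. No cause of these values was tested, beyond the Gapdh slope of Rplp0 given above.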

How the results depend on the processing

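Counts of members called were recomputed under each alternative. For the inhibitor in WT striatum array weights and leaving out the doubted arrays each gave 1 in place of 0 (2.22% of the members), while the calls over all genes went from 0.181% to 1.07% and 4.23%. Leaving out single arrays gave 0 to 1, the 1 without striatal WT PDE10i array 14, with 0.401% of all genes. For the inhibitor in WT hippocampus array weights gave 1, with 0.846% of all genes. The other inhibitor and knockout counts were 0 under every alternative run. For striatum against hippocampus, fitting only the groups compared gave 10 in WT Veh, 4 in KO Veh and 2 in KO PDE10i, beside 32.1%, 23.4% and 21.1% of all genes. Leaving out the doubted arrays gave 11 in WT PDE10i and 5 in KO Veh, beside 29.1% and 20.1%. In KO PDE10i array weights gave 10, 75th percentile centring 14 and quantile normalization 8, beside 28%, 27.4% and 27.3%. Leaving out single arrays gave 9 to 17, 14 to 17, 6 to 10 and 1 to 9 calls in WT Veh, WT PDE10i, KO Veh and KO PDE10i. In KO PDE10i the counts were 1 and 2 without striatal arrays 35 and 37, 9 without 34, and 3 without hippocampal array 34 or 36. For these single-array fits the share of all genes is given above for striatal WT Veh 4 and KO PDE10i 35 alone. The other counts are therefore not read as changes of the members in particular. The mean of a gene's probe sets reversed Rpl22 in WT Veh (−0.0151), WT PDE10i (−0.0185) and KO PDE10i (−0.0295), Rps20 in WT Veh (−0.052) and WT PDE10i (−0.0415), and Rpl41 for the interaction in striatum (−0.0323), which was not called either way. The title numbers recur in both regions, but same-numbered arrays did not deviate together: 6 of 20 pairs had r over 0.1, from −0.38 to 0.31, and 4 correlated best with their own number, so the pairing was not taken as given. With the number as a replicate block the counts were 11, 15, 6 and 3, beside 30.5%, 34.6%, 25.8% and 23.1% of all genes. Of the 4 genes called in every condition, the block left Rps19 (0.18, adjusted p 0.0635) and Rplp2 (0.16, adjusted p 0.0952) without a call in KO PDE10i. It also took the call from Rpl35 in WT Veh, Rpl4 in WT PDE10i and Rps15 and Rps26 in KO Veh. The cause of these changes was not tested, and some of these fits held fewer arrays.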
